A study of Mus musculus with 6 samples.

Results

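This report concerns Igf2 and a group of imprinted growth genes set beside it: Igf2, H19, Meg3, Dlk1, Peg3, Plagl1, Cdkn1c, Grb10 and Igf2r. They were taken by gene symbol from the count rows, and all 9 were found among 24062 genes with a row. Igf2 was selected on its large difference in counts between libraries numbered replicate 2 and replicate 1, and the others were chosen by name as imprinted genes for comparison. Every replicate 2 minus replicate 1 value below is therefore a description with no test. Of the 9 genes, 8 passed the filter on low counts that left 13185 genes for testing. H19 passed with at most 11 counts in any library, and Cdkn1c did not pass.

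RNA of NIH3T3 cells, an established mouse embryonic fibroblast line, was sequenced in 6 libraries to ask how the elongation factor SPT6 bears on transcription induced by interferon beta (IFN-beta). All cells received an siRNA for 48 h and grew in donor bovine serum. Cells with SPT6 siRNA and 4 h of IFN-beta at 100 units/ml gave 2 libraries, cells with negative control siRNA and the same IFN-beta gave 2, and SPT6 siRNA without IFN-beta and control siRNA without IFN-beta gave 1 each. The untreated libraries carry the time 0 h and the replicate number 1 in their titles, so the 4 h themselves cannot be told apart from IFN-beta in the comparisons with them, and libraries numbered 2 stand on the IFN-beta side alone. Whether the replicates were separate cultures is not stated, and p-values therefore reflect the spread between these libraries alone, which may be technical.

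An imprinted gene is expressed mainly from the allele of 1 parent, and many imprinted genes act on growth before and after birth. In the mouse, paternally expressed Igf2, Dlk1, Peg3 and Plagl1 are set against maternally expressed H19, Meg3, Cdkn1c, Igf2r and, outside neurons, Grb10. Igf2 encodes a growth factor that signals through the receptor encoded by Igf1r, while Igf2r encodes the receptor that takes IGF2 to lysosomes. Igf2 and H19 share enhancers and an imprinting control region, and Dlk1 and the Meg3 cluster share a control region of their own. Gene counts do not separate the parental alleles.

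Promoter sequences are shown for the genes whose levels differ most between libraries: Igf2 (replicate 2 against replicate 1), Meg3 with its neighbour Dlk1 (SPT6 siRNA against control siRNA), and Peg3, which follows H19 in the difference between the replicates. They were taken from RefSeq for GRCm38.p6 and run 5′ to 3′ on the sense strand, from 250 bases before to 50 bases after an annotated start. Capitals mark matches on either strand to a TATA box (TATAAA), the palindrome GGGGCCCC that the zinc finger protein PLAGL1 can bind, the cAMP response element (TGACGTCA) or an interferon-stimulated response element (GAAA, any 2 bases, GAAA).
Igf2, start 3, chr7:142658755-142659054, minus strand: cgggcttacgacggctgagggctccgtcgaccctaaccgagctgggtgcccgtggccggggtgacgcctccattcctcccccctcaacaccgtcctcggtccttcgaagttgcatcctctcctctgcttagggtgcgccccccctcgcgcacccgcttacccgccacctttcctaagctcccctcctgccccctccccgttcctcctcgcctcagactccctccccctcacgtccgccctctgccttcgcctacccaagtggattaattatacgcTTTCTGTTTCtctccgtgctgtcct
Igf2, start 4, chr7:142657447-142657746, minus strand: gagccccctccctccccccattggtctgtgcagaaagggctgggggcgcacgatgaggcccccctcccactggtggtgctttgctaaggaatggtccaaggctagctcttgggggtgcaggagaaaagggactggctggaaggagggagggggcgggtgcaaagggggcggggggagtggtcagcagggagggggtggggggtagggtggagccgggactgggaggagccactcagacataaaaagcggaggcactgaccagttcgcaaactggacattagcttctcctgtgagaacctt
Meg3, start 1, chr12:109540746-109541045, plus strand: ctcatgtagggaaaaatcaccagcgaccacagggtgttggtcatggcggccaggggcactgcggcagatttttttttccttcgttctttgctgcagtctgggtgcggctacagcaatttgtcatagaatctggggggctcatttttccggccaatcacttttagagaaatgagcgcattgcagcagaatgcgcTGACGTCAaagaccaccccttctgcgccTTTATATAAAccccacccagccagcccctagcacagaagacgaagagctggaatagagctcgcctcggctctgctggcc
Dlk1, chr12:109452573-109452872, plus strand: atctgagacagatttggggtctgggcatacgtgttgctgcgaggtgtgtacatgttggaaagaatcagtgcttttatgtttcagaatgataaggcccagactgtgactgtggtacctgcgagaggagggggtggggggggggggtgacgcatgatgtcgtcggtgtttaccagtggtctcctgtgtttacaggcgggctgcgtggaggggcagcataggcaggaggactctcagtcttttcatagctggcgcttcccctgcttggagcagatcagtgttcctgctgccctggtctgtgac
Peg3, chr7:6730370-6730669, minus strand: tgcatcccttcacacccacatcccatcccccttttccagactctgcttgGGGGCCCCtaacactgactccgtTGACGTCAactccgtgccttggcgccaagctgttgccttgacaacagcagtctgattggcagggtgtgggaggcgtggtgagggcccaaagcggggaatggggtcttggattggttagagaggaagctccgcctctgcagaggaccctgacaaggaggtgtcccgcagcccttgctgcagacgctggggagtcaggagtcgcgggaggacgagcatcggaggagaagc
The interferon element matched Igf2 start 3 at base 276, counted from 1 at the 5′ end, and was found in 3.44% of 32851 mouse promoters of the same length. Meg3 start 1 held a cAMP response element at base 194, a motif in 1.79% of promoters. It also held TATAAA on both strands at bases 222 and 226, overlapping, a motif in 13.6%. The Peg3 promoter held GGGGCCCC at base 50, a motif in 1.08%, and a cAMP response element at base 73. Dlk1 and Igf2 start 4 held none of these letters. Igf2 start 3 held 24 CpG pairs, a number that 80.0% of promoters stay below. Meg3 start 1 and Peg3 held 13 each, Dlk1 held 9 and Igf2 start 4 held 7, against a median of 7 over all promoters. Igf2 starts 1 and 2 and Meg3 start 2 are not shown. They held 2, 14 and 1 CpG pairs and none of these motifs. Which start was used in these cells was not tested. A match is a description of the letters and shows no binding. H19 and Cdkn1c had no promoter entry.

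Counts assigned to genes came to 9861581 and 11174825 with SPT6 siRNA and IFN-beta, 13951889 and 17596498 with control siRNA and IFN-beta, 7935961 with SPT6 siRNA untreated and 11968565 with control siRNA untreated. The targeted gene, Supt6, stood at 88.4 to 108 CPM (the read count scaled to library size) in the 3 SPT6 siRNA libraries, against 175 to 189 CPM in the 3 control siRNA libraries. All 10 fibroblast markers were detected, with a summed level of 12773 to 14905 CPM with SPT6 siRNA and 17114 to 19730 CPM with control siRNA. The defining muscle genes Myod1 and Myf5, the liver gene Ttr and the epithelial genes Epcam, Krt5 and Cldn4 were at 0 in every library. The skeletal muscle, adipocyte, liver, epithelial and endothelial lists summed to at most 6.17 CPM in any library, and the 5 macrophage genes with a row to 14.99 to 18.3 CPM with SPT6 siRNA and 7.72 to 11.01 CPM with control siRNA.

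**Figure D1:**
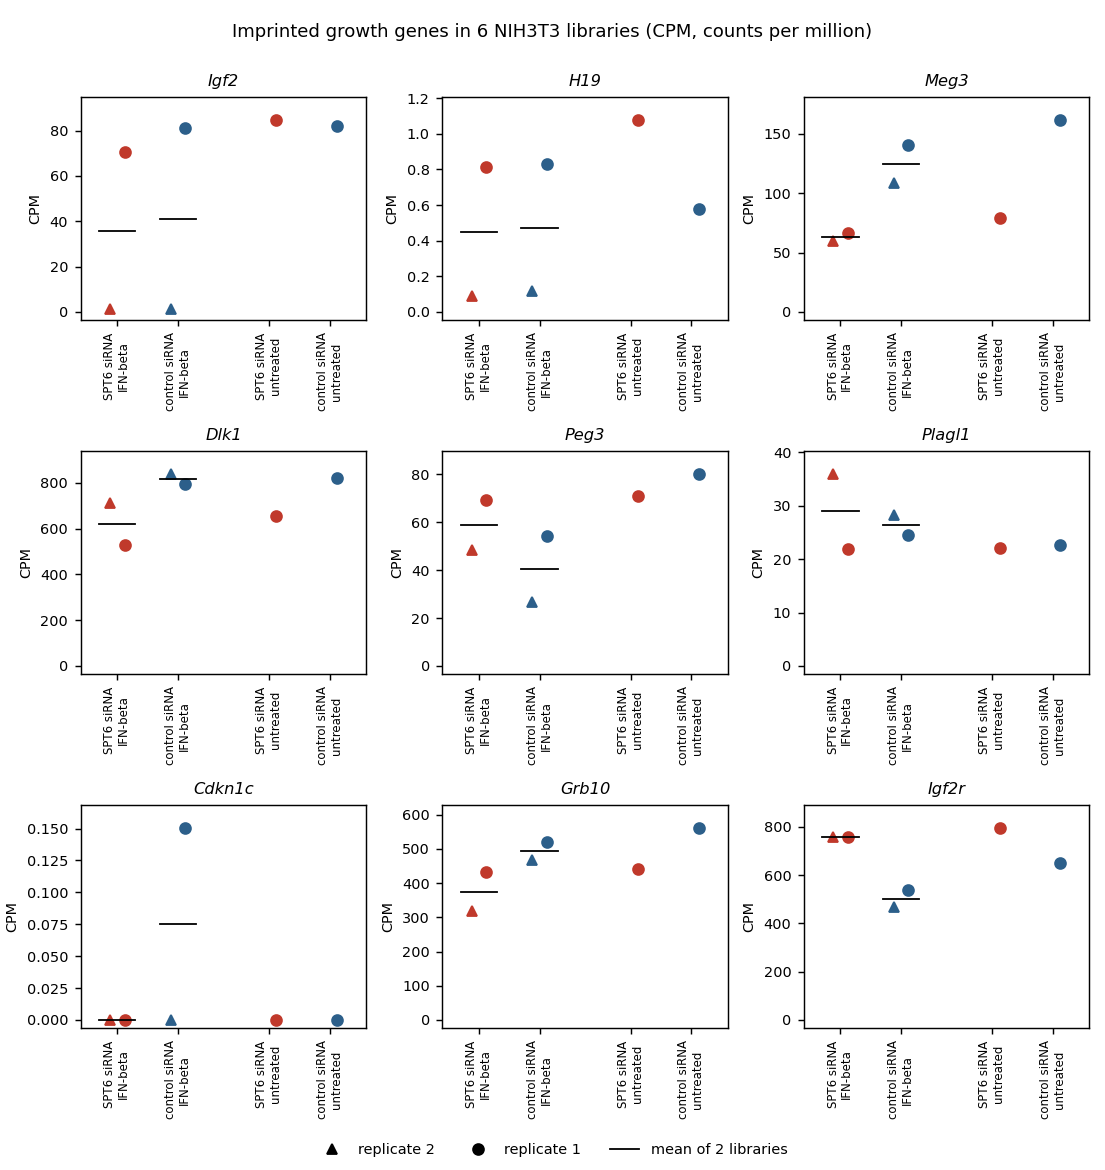
CPM of the 9 imprinted growth genes (vertical axes, each from 0) in 6 NIH3T3 libraries, by siRNA and treatment; triangles are replicate 2, circles replicate 1, and bars the mean of 2 libraries. Igf2 lies at 1.22 and 1.19 CPM in the libraries numbered 2 and between 70.4 and 84.8 CPM in the other 4, while the SPT6 siRNA libraries lie below all control siRNA libraries for Meg3, Dlk1 and Grb10 and above them for Igf2r.

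Per kilobase of exon, Dlk1 was the most abundant of the 9 genes. Its level averaged 128 RPKM (here CPM per kilobase of annotated exon) over 6 libraries, with a range of 93.1 to 148. Igf2r followed at 71.1 RPKM (50.1 to 85.6), a range that did not meet that of Dlk1. Grb10, whose product is an adaptor that restrains insulin and IGF receptor signalling, averaged 50.3 RPKM (35.1 to 61.8) and overlapped with Igf2r. Igf2 averaged 9.34 RPKM, but its range of 0.207 to 14.8 covered most of the members below it. Meg3 at 5.68 RPKM (3.32 to 8.96), Peg3 at 4.38 RPKM (2.01 to 6.03) and Plagl1 at 3.32 RPKM (2.80 to 4.61) overlapped, each with its neighbour in this order. H19 averaged 0.237 RPKM (0.0354 to 0.439) and Cdkn1c 0.0123 RPKM (0 to 0.0738), and these also overlapped. The exon length joins all annotated exons of a gene, which lowers the value of a gene with many alternative exons such as Meg3.

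Igf2 was present in 4 libraries and nearly absent in the other 2. With IFN-beta, it stood at 1.22 CPM in replicate 2 and 70.4 CPM in replicate 1 of SPT6 siRNA, and at 1.19 CPM in replicate 2 and 80.9 CPM in replicate 1 of control siRNA. It stood at 84.8 CPM with SPT6 siRNA untreated and at 82.1 CPM with control siRNA untreated. The low libraries are those numbered replicate 2, under both siRNAs. The levels numbered 2 rest on 14 reads with SPT6 siRNA and 20 with control siRNA, and the other 4 on 691 to 1075 reads. The low ones had exact 95% Poisson intervals of 0.666 to 2.04 CPM with SPT6 siRNA and 0.725 to 1.83 CPM with control siRNA. Intervals and floors here cover counting error only. Replicate 2 was 57.9-fold lower than replicate 1 with SPT6 siRNA (counting interval 34.2 to 106) and 68.2-fold lower with control siRNA (43.9 to 112). On the log2 CPM scale, with a prior count of 2, the differences were -5.67 and -5.90. No other tested gene lay as far down with both siRNAs, and Igf2 is thus 0.00758% of the 13185 genes. Igf2 was chosen for this difference, so the share only restates 1 gene in 13185 and is no test of Igf2. In bulk RNA, fewer cells that express a gene and less RNA per cell cannot be told apart.

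Within a replicate number, Igf2 differed little by siRNA, and no test was made of these single pairs. SPT6 siRNA minus control siRNA came to -0.20 on the log2 scale in the libraries numbered 1 with IFN-beta, to 0.032 in those numbered 2, and to 0.046 in the untreated pair. Over the groups with IFN-beta, Igf2 averaged 35.8 ± 49.0 CPM with SPT6 siRNA and 41.1 ± 56.4 CPM with control siRNA (SD, n = 2 each). The spread between the libraries of a group was thus larger than the group mean. The edgeR quasi-likelihood test gave a log2 difference of -0.20 ± 2.21 (SE; Benjamini-Hochberg adjusted p = 0.982). Its error includes the difference between replicate numbers for which Igf2 was chosen. A difference of several fold between the siRNAs would lie within that error. The estimate was -5.08 without the SPT6 siRNA library numbered 1, 0.77 without that numbered 2, 4.90 without the control siRNA library numbered 1 and -1.18 without that numbered 2. A fit with a replicate block, a pairing the labels do not state, gave -0.17 ± 0.19 (SE, edgeR adjusted p = 0.584).

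H19, the noncoding RNA downstream of Igf2, was close to its detection limit. With IFN-beta, it had 1 read in replicate 2 and 8 in replicate 1 of SPT6 siRNA, and 2 in replicate 2 and 11 in replicate 1 of control siRNA. It had 9 with SPT6 siRNA untreated and 7 with control siRNA untreated. The lowest values are again the libraries numbered 2. The ratio of replicate 2 to replicate 1 was 0.107 with SPT6 siRNA (counting interval 0.0024 to 0.795) and 0.143 with control siRNA (0.0154 to 0.657). Igf2 and H19 were the members at a log2 difference of -1 or lower with both siRNAs, a range that held 2.13% of tested genes. Peg3 was at -0.52 with SPT6 siRNA and -1.01 with control siRNA, and Grb10 at -0.43 and -0.16. Meg3 was at -0.14 and -0.38, and Igf2r at -0.0009 and -0.21. Dlk1 (0.44 and 0.079) and Plagl1 (0.71 and 0.21) were above 0 with both siRNAs. The medians over all tested genes were -0.00054 with SPT6 siRNA and 0.017 with control siRNA. Igf2 was chosen for these values, and H19 passed the count filter through the libraries where it is higher. The share of 2.13% is therefore no test of Igf2 and H19.

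**Figure D2:**
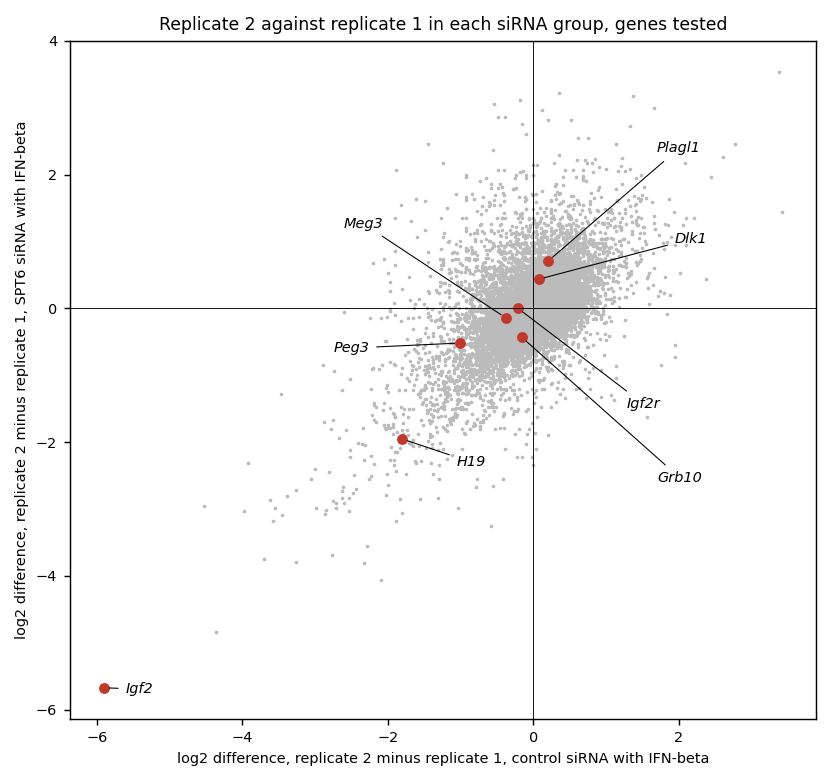
Log2 difference of CPM between replicate 2 and replicate 1 with IFN-beta, with control siRNA on the horizontal and SPT6 siRNA on the vertical axis; grey points are the 13185 tested genes and red points the 8 members tested. Igf2 lies at -5.90 and -5.67, apart from all other genes, H19 at -1.80 and -1.95, and the remaining members lie within the main cloud.

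The region around Igf2 and H19 on chromosome 7 did not share the depth of the Igf2 difference. Of 16 genes with a row and any base within 250 kb, 12 had reads and 7 were tested. Of the 5 tested besides Igf2 and H19, 4 were below 0 with both siRNAs in replicate 2 against replicate 1, where 33.1% of tested genes were. Ctsd, which encodes the lysosomal protease cathepsin D, was the most abundant, with differences of -0.092 with SPT6 siRNA and -0.24 with control siRNA. Lsp1, which encodes an actin-binding protein, was at -1.30 and -1.28, and Tnnt3, a troponin gene of fast skeletal muscle, at -1.41 and -2.18 on 51 reads in all. Tnnt3 passed the count filter through libraries numbered 1, where it is higher, so the count of 4 is no test. Prr33, on 118 reads, was at -0.47 and -1.59, and Mrpl23, a mitochondrial ribosomal protein gene, at -0.53 and 0.023. The antisense transcript Igf2os had 24 reads over all 6 libraries and was not tested. The strand setting of the counting was not given, so its reads and those of Igf2 cannot be told apart where they overlap.

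Genes with profiles like that of Igf2 were found by the distance between log2 CPM values centred on each gene's mean, over 6 libraries and 11584 candidate genes. The nearest was Dlg2, which encodes a synaptic scaffold protein, at a distance of 1.48 log2 units (r = 0.996). With IFN-beta, it stood at 0.261 CPM in replicate 2 and 12.03 CPM in replicate 1 of SPT6 siRNA, and at 0.475 CPM in replicate 2 and 13.02 CPM in replicate 1 of control siRNA. It stood at 12.1 CPM with SPT6 siRNA untreated and 15.4 CPM with control siRNA untreated. Like Igf2, it was low in the libraries numbered 2 alone. The next were Agtr2, the type 2 receptor of angiotensin II, at 2.38, and Pappa2, a protease that cleaves IGF-binding proteins, at 2.45. Scn3a (a voltage-gated sodium channel subunit), Cyp2f2 (a cytochrome P450), Tmem176b, Zcchc5 and Lbp (the lipopolysaccharide-binding protein) followed at 2.48 to 2.87. These distances rest on the same libraries, share their depth, and carry no test. Among the members, H19 would rank 61 (r = 0.97) and Peg3 348 (r = 0.83), while Plagl1 ran opposite to Igf2 (r = -0.89).

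**Figure D3:**
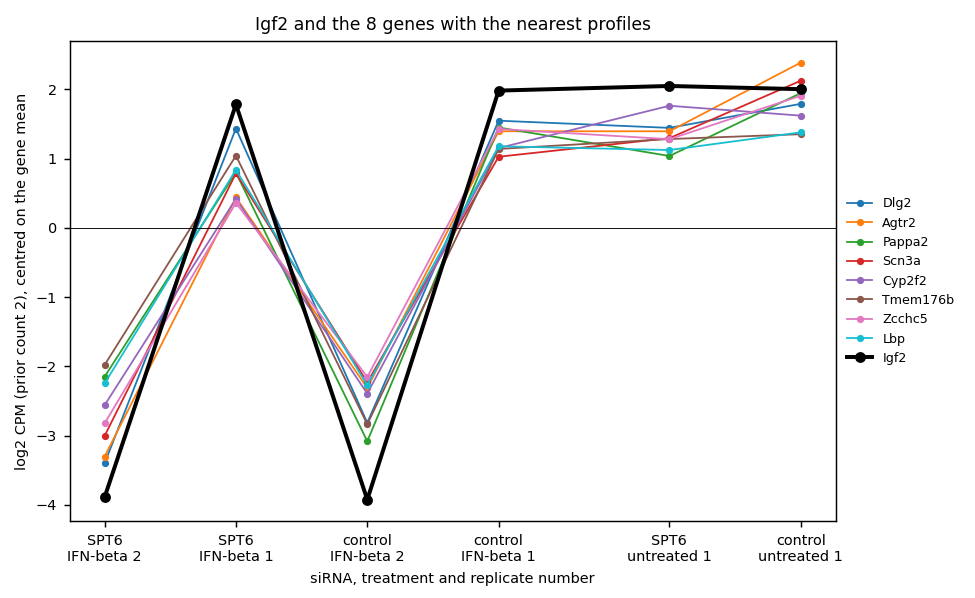
Log2 CPM (prior count 2), centred on each gene's mean, for Igf2 (black) and the 8 genes with the nearest profiles (colours) in 6 libraries named by siRNA, treatment and replicate number. All 9 lines are lowest in the libraries numbered 2, and Igf2 has the widest swing.

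Other gene groups moved with the replicate number. For replicate 2 minus replicate 1, the median over 25 cell cycle genes was 0.24 with SPT6 siRNA and 0.75 with control siRNA, and 21 of 25 were above 0 with both, where 35% of tested genes were. The 16 growth arrest genes tested of 17, among them Gas1 and Txnip, had medians of -1.03 and -0.72. Below 0 with both were 14 of 16, against 33.1% of tested genes. All 15 genes of an interferon-stimulated panel were below 0 with both, with medians of -0.99 and -0.74. Of 10 fibroblast markers, 6 were below 0 with both and none was above 0 with both. The part of these groups in the Igf2 difference was not tested.

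SPT6 siRNA against control siRNA was the replicated comparison. With IFN-beta, 0 of 13185 genes had an adjusted p under 0.05 in edgeR (0%), so no member was called. A fit with a replicate block, a pairing the labels do not state, called 20% of genes, among them Meg3, Igf2r, Peg3 and Grb10. Its calls are given further below, and unless the block is named, edgeR stands for the fit without it. At an unadjusted p under 0.05 in edgeR there were 1538 genes (11.7%). The members among them were Meg3, lower with SPT6 siRNA as were 4.31% of tested genes, and Igf2r, higher as were 7.36%. The libraries of the siRNA groups did not overlap for Meg3, Dlk1 and Grb10, lower with SPT6 siRNA (21.3% of tested genes), and for Igf2r, higher (22.7%). With the untreated libraries added, each of 3 SPT6 siRNA libraries was below each of 3 control siRNA libraries for the same 3 genes (9.32% of tested genes), and above for Igf2r (12.2%). The median log2 difference of the 8 members was -0.13, against -0.017 over all tested genes. In the same comparison 9 of 10 fibroblast markers were below 0, with a median of -0.47. Of 4 tested macrophage markers, 3 were above 0 and 1 was below, with a median of 0.64. Of all tested genes, 52% were below 0. The part of these marker shifts in the members' values was not tested.

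Meg3, a maternally expressed noncoding RNA, had the smallest p of the members. It stood at 66.2 and 60.02 CPM with SPT6 siRNA and IFN-beta, against 141 and 108 CPM with control siRNA and IFN-beta, and at 78.8 CPM with SPT6 siRNA untreated, against 162 CPM with control siRNA untreated. Every SPT6 siRNA library was below every control siRNA library. Means with IFN-beta were 63.1 ± 4.35 and 125 ± 23.1 CPM (SD, n = 2 each), a fold of 0.506 and a log2 difference of -0.98 ± 0.19 (SE). Of the 13185 genes, 83 had a smaller p than its 0.00163, but the edgeR adjusted p was 0.247. DESeq2 gave an adjusted p of 0.0298 (62 genes called, 0.47%), and edgeR without the low count filter gave 0.0454 (66 of 17745 genes, 0.372%). A fit of siRNA and treatment as additive terms over all 6 libraries, chosen after the data were seen, gave -1.002 ± 0.134 with an adjusted p of 0.0326 (119 genes called, 0.903%). Meg3 was then 1 of 6 genes called lower (0.0455%).

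The other RNAs of the Meg3 cluster also had lower values in each SPT6 siRNA library, but edgeR called none of them. Rian, a host of small nucleolar RNAs, stood at 144 and 97.0 CPM with SPT6 siRNA and IFN-beta, against 238 and 205 CPM with control siRNA and IFN-beta, and at 123 CPM with SPT6 siRNA untreated, against 233 CPM with control siRNA untreated. Mirg, a host of microRNAs, stood at 3.87, 3.65 and 5.16 CPM in the SPT6 siRNA libraries, against 9.26, 7.06 and 8.46 CPM in the control siRNA libraries, each with the untreated library last. For both, as for Meg3, the SPT6 siRNA libraries did not overlap with the control siRNA libraries and lay below them (9.32% of tested genes). Rtl1, a paternally expressed gene derived from a retrotransposon, stood at 5.91, 4.35 and 8.27 CPM against 15.9, 10.4 and 16.7 CPM. Its gene runs on the minus strand, opposite a maternally expressed antisense transcript, and without the strand setting their reads cannot be told apart. With IFN-beta, the log2 differences were -0.88 ± 0.23 for Rian, -1.11 ± 0.29 for Mirg and -1.36 ± 0.32 for Rtl1 (SE), with edgeR adjusted p of 0.320, 0.324 and 0.309. In the additive fit the adjusted p was 0.0515 for Rian, 0.0721 for Mirg and 0.0548 for Rtl1, so it called none of them either.

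Dlk1, the paternally expressed protein-coding gene at the other end of the cluster, encodes a membrane protein of the Delta and Notch family. It had 527 and 713 CPM with SPT6 siRNA and IFN-beta, against 795 and 839 CPM with control siRNA and IFN-beta, and 654 CPM with SPT6 siRNA untreated, against 823 CPM with control siRNA untreated. The ranges did not overlap, but the SPT6 siRNA libraries spread widely. The log2 difference was -0.40 ± 0.22 (SE; edgeR adjusted p = 0.514), at -0.21 without SPT6 siRNA replicate 1 and -0.64 without SPT6 siRNA replicate 2. Of 67 genes with a row within 250 kb of Dlk1 and Meg3, 11 had reads and 5 were tested, which are the 5 described. All 5 were below 0 with IFN-beta, where 52% of tested genes were. The other 6 detected rows, all for microRNAs or small nucleolar RNAs, held at most 6 reads each and 17 in all. In the window around Igf2 and H19, 6 of 7 tested genes were below 0 in the same comparison. For all of these but Mrpl23 (-0.47 ± 0.25, SE), the SE was larger than the difference. The gene above 0 was Ctsd, at 0.68 ± 0.19 (SE), with an edgeR adjusted p of 0.349.

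**Figure D4:**
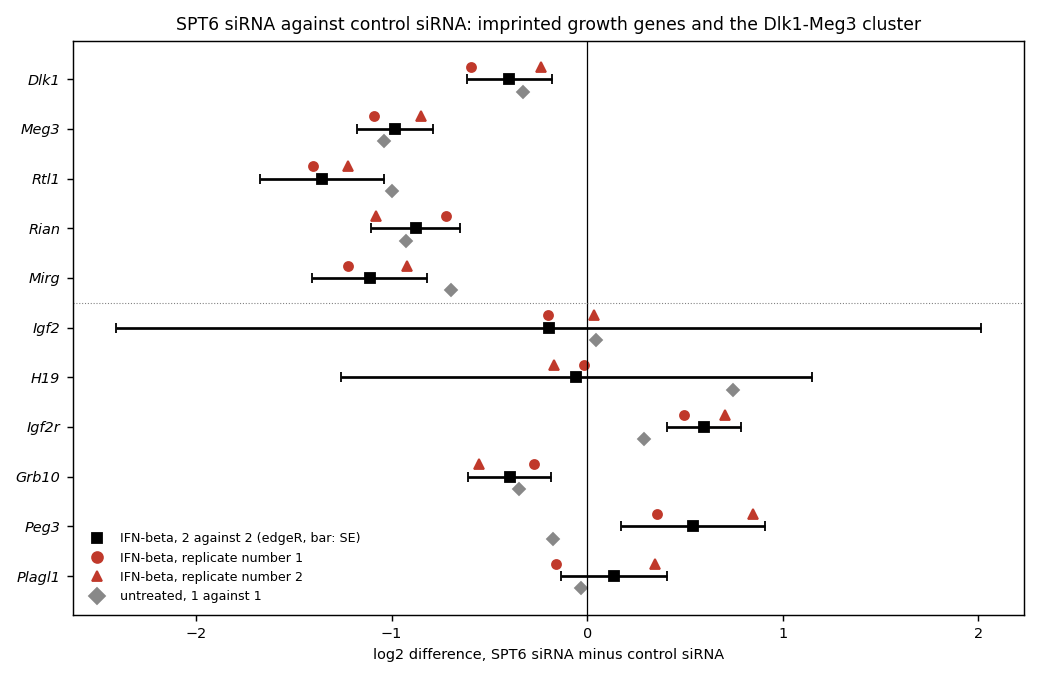
Log2 difference between SPT6 siRNA and control siRNA for the Dlk1-Meg3 cluster (above the dotted line) and the other members. Squares with bars are edgeR estimates with their SE for IFN-beta, 2 libraries against 2, red symbols the pairs of a replicate number and grey diamonds the untreated pair; all symbols of the cluster lie below 0, and the bar of Igf2 spans -0.20 ± 2.21.

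Igf2r stood above the control siRNA libraries in each SPT6 siRNA library. It had 760 and 759 CPM with SPT6 siRNA and IFN-beta, against 539 and 467 CPM with control siRNA and IFN-beta, and 797 CPM with SPT6 siRNA untreated, against 652 CPM with control siRNA untreated. IFN-beta libraries differed by 0.60 ± 0.19 on the log2 scale (SE; edgeR adjusted p = 0.359). The untreated pair gave 0.29, and 79.6% of tested genes were lower than that.

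Grb10 had 431 and 319 CPM with SPT6 siRNA and IFN-beta, against 520 and 467 CPM with control siRNA and IFN-beta, and 442 CPM with SPT6 siRNA untreated, against 561 CPM with control siRNA untreated. Its log2 difference of -0.40 ± 0.21 (SE) did not pass (edgeR adjusted p = 0.506), and was -0.64 without SPT6 siRNA replicate 1 and -0.20 without SPT6 siRNA replicate 2. Peg3, which encodes a zinc finger protein, had 69.3 and 48.4 CPM with SPT6 siRNA and IFN-beta, against 54.1 and 26.8 CPM with control siRNA and IFN-beta, and 71.0 CPM with SPT6 siRNA untreated, against 80.3 CPM with control siRNA untreated. The groups overlapped, and the log2 difference was 0.54 ± 0.37 (SE; edgeR adjusted p = 0.602). It was 0.24 without SPT6 siRNA replicate 1, 1.14 without control siRNA replicate 1 and 0.12 without control siRNA replicate 2. Plagl1, which encodes the zinc finger protein named above, had 21.9 and 36.0 CPM with SPT6 siRNA and IFN-beta, against 24.5 and 28.3 CPM with control siRNA and IFN-beta, and 22.2 CPM with SPT6 siRNA untreated, against 22.7 CPM with control siRNA untreated. Its values overlapped too, at 0.14 ± 0.27 (SE; edgeR adjusted p = 0.873). H19 was at -0.056 ± 1.20 (SE; edgeR adjusted p = 0.991).

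Cdkn1c, which encodes the cell cycle inhibitor p57, had 2 reads in the control siRNA library numbered 1 with IFN-beta and 0 in the other 5 libraries. A count of 0 allows up to 3 reads, or 0.178 CPM in the deepest and 0.360 CPM in the shallowest of those libraries. For SPT6 siRNA against control siRNA with IFN-beta, edgeR without the low count filter gave it an adjusted p of 0.801, on those 2 reads.

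In the untreated pair, with 1 library a group and no test, Meg3 was the only member past a log2 difference of 1 in either direction, at -1.04. At -1 or lower there were 1.41% of tested genes and at 1 or higher 3.13%. H19 was at 0.75 on 9 against 7 reads. Dlk1 was at -0.33, Grb10 at -0.35, Peg3 at -0.18, Plagl1 at -0.032, Igf2 at 0.046 and Igf2r at 0.29.

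No member passed the edgeR test for IFN-beta. With SPT6 siRNA, IFN-beta against untreated called 6 genes (0.0455%), and with control siRNA 18 (0.137%), none of them a member. In that panel of 15 interferon-stimulated genes, all 15 were above 0 with each siRNA, with median log2 differences of 6.46 with SPT6 siRNA and 6.26 with control siRNA. The 8 members had medians of -0.25 with SPT6 siRNA and -0.36 with control siRNA, against 0.0050 and -0.0053 over all tested genes. Of the 8, 7 were below 0 with each siRNA, all but Plagl1. In the single pairs of an IFN-beta and an untreated library, 49.8% to 52.9% of tested genes were below 0. The count and the medians include Igf2, which was chosen for its low replicate 2 values. They also include H19, which passed the count filter through the libraries where it is higher. Each of the tested comparisons sets 2 IFN-beta libraries against 1 untreated library numbered 1.

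Peg3 had the smallest p of the members in the response with control siRNA, at -0.99 ± 0.43 (SE; edgeR adjusted p = 0.621), and at -1.59 without control siRNA replicate 1 and -0.57 without control siRNA replicate 2. Its IFN-beta libraries stood at 54.1 and 26.8 CPM, against 80.3 CPM untreated. With SPT6 siRNA its response was -0.27 ± 0.44 (SE; edgeR adjusted p = 0.939). Igf2 gave -1.25 ± 2.61 with SPT6 siRNA and -1.01 ± 2.60 with control siRNA (SE), where the replicate 1 libraries alone differed from the untreated ones by -0.27 with SPT6 siRNA and -0.020 with control siRNA. Meg3 gave -0.32 ± 0.23 with SPT6 siRNA and -0.38 ± 0.23 with control siRNA (SE; edgeR adjusted p = 0.900 and 0.688). The difference of the responses, SPT6 siRNA minus control siRNA, called 0 genes in edgeR (0%) and 0 in DESeq2, with 50 at an unadjusted p under 0.05 (0.379%) and no member among them.

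The IGF axis around Igf2 was described by 30 genes for hormones, receptors, binding proteins, their proteases and signalling proteins, of which 24 were tested. With IFN-beta, edgeR called none for SPT6 siRNA against control siRNA, with 2 of 24 at an unadjusted p under 0.05 (11.7% of tested genes). DESeq2, the additive fit and edgeR without the low count filter each called 1, Igfbp6. There were 12 above and 12 below 0, and the median was -0.00635. Igfbp6, whose protein binds IGF2 in preference to IGF1, had the smallest p of the list. It stood at 479 and 529 CPM with SPT6 siRNA and IFN-beta, against 224 and 233 CPM with control siRNA and IFN-beta, and at 546 CPM with SPT6 siRNA untreated, against 193 CPM with control siRNA untreated. Every SPT6 siRNA library exceeded every control siRNA library, as for 12.2% of tested genes. The log2 difference was 1.14 ± 0.17 (SE), with an edgeR adjusted p of 0.238, an adjusted p of 0.000108 in DESeq2 and 0.0208 in the additive fit.

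Irs1, the insulin receptor substrate, was at -0.51 ± 0.21 (SE) and had 144 and 181 CPM with SPT6 siRNA and IFN-beta, against 199 and 264 CPM with control siRNA and IFN-beta. Pdpk1 (a kinase that activates AKT) was at 0.39, Grb2 (an adaptor) at 0.34, Insr (the insulin receptor) at 0.30 and Pappa (a protease of IGF-binding proteins) at 0.42, none of them called by edgeR, DESeq2 or the additive fit. Igf1r, the receptor through which IGF2 signals, had 161 and 211 CPM with SPT6 siRNA and IFN-beta, against 218 and 204 CPM with control siRNA and IFN-beta. The values of Igf1r overlap.

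Igf1, Igfbp4 and Pappa2 were the genes of the axis at -1 or lower in replicate 2 against replicate 1 with both siRNAs, as Igf2 was. These are 3 of the 24 genes tested, where 2.13% of all tested genes were. With IFN-beta, Igf1 stood at 8.35 CPM in replicate 2 and 62.7 CPM in replicate 1 of SPT6 siRNA, and at 15.3 CPM in replicate 2 and 103 CPM in replicate 1 of control siRNA. It stood at 71.7 CPM with SPT6 siRNA untreated and at 136 CPM with control siRNA untreated. The values numbered 2 are again the low ones. The differences were -2.88 with SPT6 siRNA and -2.75 with control siRNA for Igf1, -2.79 and -2.03 for Igfbp4, and -2.95 and -4.53 for Pappa2. Igfbp6 was at 0.14 and 0.061.

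**Figure D5:**
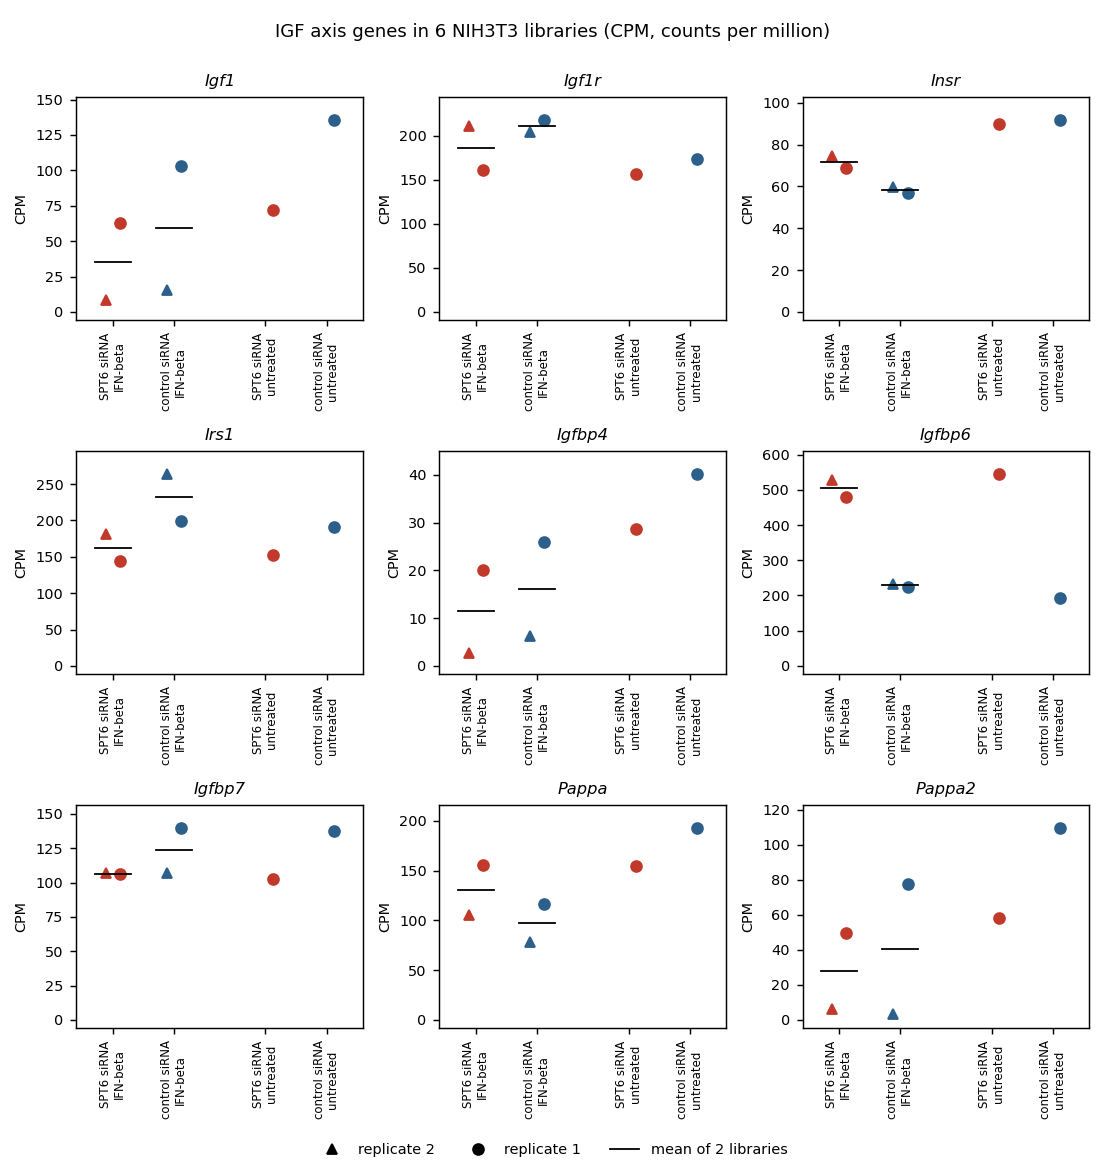
CPM of 9 genes of the IGF axis (vertical axes, each from 0) in 6 libraries, chosen after their values were seen; triangles are replicate 2, circles replicate 1, and bars the mean of 2 libraries. Igf1, Igfbp4 and Pappa2 are low in both libraries numbered 2, and Igfbp6 lies at 479 to 546 CPM with SPT6 siRNA and 193 to 233 CPM with control siRNA.

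Beyond the 9 genes, 56 of 58 other imprinted genes had a row and 32 were tested. For SPT6 siRNA against control siRNA with IFN-beta, edgeR, DESeq2 and the additive fit each called 0. In edgeR, 6 of the 32 had an unadjusted p under 0.05, where 11.7% of tested genes did. There were 15 above and 17 below 0, and the median was -0.021, against -0.017 over all tested genes. The 3 smallest p were those of Rtl1, Rian and Mirg, all of the Meg3 cluster. Pon2 was at 0.62 (edgeR adjusted p = 0.356), Blcap at 0.57 (0.373) and Peg12 at -0.70 (0.425).

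Of 20 genes of DNA methylation and imprint maintenance, 19 were tested, and edgeR, DESeq2 and the additive fit each called 0 for SPT6 siRNA against control siRNA with IFN-beta. In edgeR, 2 of 19 had an unadjusted p under 0.05 (11.7% of tested genes). Below 0 were 18 of 19, where 52% of tested genes were, with a median of -0.29. Uhrf1, which brings the maintenance methyltransferase to replicating DNA, stood at 92.2 and 118 CPM with SPT6 siRNA and IFN-beta, against 145 and 260 CPM with control siRNA and IFN-beta (log2 difference -0.94 ± 0.30, SE; edgeR adjusted p = 0.367). Ezh2, a histone methyltransferase, was at -0.56 (0.383), Dnmt1 at -0.56 (0.434), Dnmt3a at -0.38 (0.439), Tet1 at -0.60 (0.485) and Dnmt3l at -1.08 (0.493). All 25 cell cycle genes were below 0 in the same comparison, with a median of -0.59. Of them, 8 had an unadjusted p under 0.05 in edgeR, where 4.31% of tested genes were lower at that p. The part of the cell cycle genes in the values of the methylation genes was not tested.

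Of 13 regulators named for Igf2 and H19, 11 were tested, and edgeR, DESeq2 and the additive fit called 0, with 0 at an unadjusted p under 0.05 in edgeR. There were 3 above and 8 below 0 for SPT6 siRNA against control siRNA with IFN-beta, and the median was -0.18. Plag1, a zinc finger activator of Igf2, stood at 49.0 and 27.6 CPM with SPT6 siRNA and IFN-beta, against 52.1 and 42.6 CPM with control siRNA and IFN-beta. For replicate 2 against replicate 1, 7 of 11 were above 0 with both siRNAs, where 35% of tested genes were. Below 0 with both were 2, against 33.1% of tested genes. Lin28a and Wt1 had no read in any library.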

How the data were processed

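Per the labels' protocols, TRIzol RNA of NIH3T3 cells went into 6 Ovation SP Ultralow libraries, read in pairs on a HiSeq2000. The authors deposited whole-number read counts per gene symbol, not normalised. TopHat2 2.1.0, HTSeq 0.6.1p1, DESeq2 and the builds mm10 and GRCm38 stand in the submitters' processing notes; the annotation and strand setting are not given in the sources used here. Of all reads, 32.9% to 38.0% were in genes; lines naming no gene stayed out of library sizes and tests.

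Groups came from the sample titles. Counts were filtered with filterByExpr (minimum 10) and scaled by TMM. They were tested with edgeR 4.0.16 (robust quasi-likelihood) in R 4.3.3 on 4 group means, which leaves 2 residual degrees of freedom, both from IFN-beta groups; the lone untreated libraries are assumed to vary like these. Calls had a Benjamini-Hochberg adjusted p under 0.05 over 13185 genes; SE is the absolute log2 difference divided by the root of edgeR's F. RPKM used joined exon lengths of GENCODE M21 (GRCm38), which held 94.5% of symbols.

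The members and lists were chosen with earlier results of these data known. Named genes were all members and Supt6, up to 6 genes of a list with the smallest p, the 8 genes nearest to Igf2, and the most abundant neighbours; other names were chosen after their values were seen. Alternatives were DESeq2 1.42.0, its size factors, no filter, a replicate block, another prior count, and leaving out each IFN-beta library.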

Additional observations from a re-analysis of the deposited data

Results flagged for a closer look

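H19 and Peg3 are listed here because SPT6 siRNA minus control siRNA had one sign in the untreated pair and the opposite sign in both IFN-beta pairs; this comparison of signs was not itself a test. H19 was at 0.75 on the log2 scale in the untreated pair, on 9 against 7 reads, and at -0.018 and -0.17 in the IFN-beta pairs numbered 1 and 2. Peg3 was at -0.18 in the untreated pair and at 0.36 and 0.85 in the IFN-beta pairs. The difference of the IFN-beta responses, tested with edgeR, was -0.95 ± 1.94 for H19 and 0.72 ± 0.63 for Peg3 (SE), and neither was called (adjusted p = 0.9999 for each).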

How the results depend on the processing

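The members' directions held with size factors of DESeq2. The count of called genes moved with the method. For SPT6 siRNA against control siRNA with IFN-beta it was 0, against 66 without the low count filter, 62 with DESeq2, 119 in the additive fit and 2638 with the replicate block. For the IFN-beta response with SPT6 siRNA it was 6, against 46 without the filter, 129 with DESeq2 and 545 with the block. With control siRNA it was 18, against 77, 204 and 957. The difference of responses had 4 genes with the block. Leaving out each IFN-beta library gave 9 to 25 genes for the response with SPT6 siRNA, with 25 without SPT6 siRNA replicate 2 and 14 without either control siRNA library. It gave 16 to 52 for the response with control siRNA, with 52 without SPT6 siRNA replicate 1 and 45 without SPT6 siRNA replicate 2.

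The replicate numbers share only a number in the labels. Deviations from the group mean correlated across 13185 genes between same-numbered libraries (r = 0.56, 2 pairs). With the block, Meg3 (adjusted p = 2.54e-09), Igf2r (0.00363), Peg3 (0.000777) and Grb10 (0.0499) were called for SPT6 siRNA with IFN-beta, where 20% of genes were, and Peg3 (0.00502) for the response with control siRNA, where 7.26% were. In the lists, the block called for SPT6 siRNA with IFN-beta 7 of 32 other imprinted genes (Rtl1, Rian, Mirg, Blcap, Pon2, Peg12 and Dcn), 6 of 24 genes of the IGF axis (Igfbp6, Igf1, Irs1, Igfbp4, Pappa and Pdpk1), 6 of 19 methylation genes (Uhrf1, Ezh2, Tet1, Dnmt1, Dnmt3a and Tet3), 20 of 25 cell cycle genes and 0 of 11 regulators.

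Some signs turned. For SPT6 siRNA against control siRNA, H19 was at 0.31 in the additive fit. With the block, it was at 0.55 in the response with control siRNA. In that response Dlk1 was at 0.0098 without the filter and Plagl1 at -0.014 with the block. Peg3 was at 0.090 with the block in the response with SPT6 siRNA. Leaving out a library moved SPT6 siRNA against control siRNA with IFN-beta between -5.08 and 4.90 for Igf2, -2.26 and 1.79 for H19, and -0.27 and 0.44 for Plagl1. It moved the response with SPT6 siRNA between -0.33 and 0.12 for Dlk1 and -0.034 and 0.69 for Plagl1, and that with control siRNA between -2.19 and 0.52 for H19 and -0.051 and 0.020 for Dlk1. The difference of responses ranged from -5.14 to 4.86 for Igf2, -3.17 to 0.90 for H19 and -0.12 to 0.28 for Meg3. It ranged from -0.33 to 0.10 for Dlk1, -0.26 to 0.45 for Plagl1 and -0.32 to 0.12 for Grb10. The causes were not tested.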

Other observations

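Among the other imprinted genes, Sfmbt2 and Dcn were the tested ones at -1 or lower in replicate 2 against replicate 1 with both siRNAs. These are 2 of the 32 tested, where 2.13% of all tested genes were. Dcn, which encodes the matrix proteoglycan decorin and is also a fibroblast marker, stood with IFN-beta at 66.4 CPM in replicate 2 and 203 CPM in replicate 1 of SPT6 siRNA, and at 104 CPM in replicate 2 and 270 CPM in replicate 1 of control siRNA. It stood at 206 CPM with SPT6 siRNA untreated and at 305 CPM with control siRNA untreated. Sfmbt2, a Polycomb group gene, stood with IFN-beta at 5.31 CPM in replicate 2 and 11.7 CPM in replicate 1 of SPT6 siRNA, and at 5.34 CPM in replicate 2 and 14.6 CPM in replicate 1 of control siRNA. It stood at 11.99 CPM with SPT6 siRNA untreated and at 15.9 CPM with control siRNA untreated. Both genes are low in the libraries numbered 2, as Igf2 is, and neither reaches its depth.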
